A study of Mus musculus with 18 samples.

Results

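Sox10, Fabp7, Ngfr, S100b, Mbp, Pmp22 and Tubb3, 7 of the 18193 genes named on the array, stand for Schwann cells, the neural crest lineage and nerves, and were followed through mouse skin in which Notch signalling had been switched on in keratinocytes. Every probe set to which the platform annotation gave 1 of these symbols was taken, whatever its values, which gave 19 of the 45037 probe sets on the array. Sox10 had 3 probe sets, Ngfr 3, S100b 2, Mbp 8, and Fabp7, Pmp22 and Tubb3 1 each. Of the 19, 17 had a mean signal high enough to be tested. For 2 of these, Tubb3 and S100b 1419383_at, the mean of the other 5 groups without the highest one (transgenic epidermis for Tubb3, at 7.11, and wild-type dermis for S100b, at 4.52) was 2.999 for Tubb3 and 3.005 for S100b, below the 3.149 needed, so that they were tested only through the group where they were high.

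The 18 arrays fell into 6 groups of 3: dermis, epidermis and whole skin of K14NICDER transgenic mice, and the same tissues of wild-type mice. K14NICDER carries the intracellular part of Notch, joined to a hormone-binding domain, under the keratin 14 promoter, so that 4-hydroxytamoxifen (4OHT) turns on Notch signalling where that promoter is active, mainly in basal keratinocytes. All mice, wild type included, were females of a C57Bl6xCBA F1 background, 7 weeks old at the start, and all received 4OHT for 14 days. The question was how gene expression in the separated epidermis and dermis of transgenic mice compares with that of wild-type mice. The labels give neither the number of animals per sample nor whether tissues came from the same animals, so every p-value measures the spread between these samples. No probe set is known here to read the fusion itself, so the transgene did not serve as a check of the labels.

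Schwann cells, the glia of peripheral nerves, arise from the neural crest, as do melanocytes. Sox10, a transcription factor, is needed throughout the Schwann cell lineage and is also active in melanocytes. Immature and non-myelinating Schwann cells express Ngfr, the low-affinity neurotrophin receptor, and Fabp7, a brain-type fatty acid-binding protein that is a known Notch target in radial glia. Myelinating Schwann cells wrap axons in membranes rich in myelin proteins such as Mbp and Pmp22, and S100b, a calcium-binding protein, is expressed through much of the lineage. Tubb3, a beta-tubulin, is a standard marker of neurons and their axons. Several of these genes are not confined to nerve: Ngfr is found in keratinocytes and Pmp22 in fibroblasts and epithelia.

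Fabp7 and Tubb3 were the members that differed between the genotypes in epidermis, and the 250 bases before the RefSeq start of each (GRCm38.p6) are shown for that reason. Capitals mark TGGGAA, the core bound by the Notch cofactor RBPJ, and ACAANG, a core of SOX factor sites, on either strand. The Fabp7 window lies at chr10:57784673-57784922 (plus strand) and the Tubb3 window at chr8:123411303-123411552 (plus strand).
Fabp7: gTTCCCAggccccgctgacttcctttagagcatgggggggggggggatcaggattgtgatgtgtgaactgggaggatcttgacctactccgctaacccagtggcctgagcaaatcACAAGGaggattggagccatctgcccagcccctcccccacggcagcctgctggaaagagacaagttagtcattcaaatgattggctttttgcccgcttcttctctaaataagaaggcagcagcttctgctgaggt
Tubb3: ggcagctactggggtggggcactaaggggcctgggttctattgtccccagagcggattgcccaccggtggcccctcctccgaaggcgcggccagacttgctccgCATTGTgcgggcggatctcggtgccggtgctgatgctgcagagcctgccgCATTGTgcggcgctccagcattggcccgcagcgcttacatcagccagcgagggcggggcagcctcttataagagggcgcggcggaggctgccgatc
The Fabp7 window held 1 match to the RBPJ core and 1 to the SOX core, and the Tubb3 window held 0 and 2, with no overlap between matches. Of all 32851 windows of this length in the table, 21.6% held the RBPJ core and 36.3% the SOX core. Windows were found for 5 of the 7 genes, 8 windows in all. S100b had 1 match to each core, 1 of the 4 Pmp22 windows held the RBPJ core, and the Ngfr window held neither core. These are matches of letters and not measured binding sites.

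All values below are log2 signals, and all differences are log2 differences with their standard error from limma, adjusted by the Benjamini-Hochberg method over the 31526 probe sets tested. A difference of 1 is a 2-fold change. Signals of different probe sets are not compared with each other. Median standard deviations within a group were 0.593 in transgenic dermis and 0.357 in wild-type dermis, 0.396 in transgenic epidermis and 0.489 in wild-type epidermis, and 0.203 and 0.202 in transgenic and wild-type whole skin. The layer labels were checked against markers. Of 8 fibroblast genes, 5 were higher in dermis than in epidermis in transgenic skin and 7 in wild-type skin. Of 6 differentiated keratinocyte genes, 5 were lower in dermis in each genotype. Over all probe sets tested, 9.19% were higher and 9.6% lower in dermis in transgenic skin, and 8.57% and 7.12% in wild-type skin. Basal keratinocyte signal was present in dermis: the summed linear signal of 7 such genes was 9141 to 9892 in transgenic dermis and 11668 to 14206 in wild-type dermis, against 10803 to 11152 in transgenic epidermis and 15629 to 20017 in wild-type epidermis. In such bulk samples fewer cells of a type and less RNA per cell cannot be told apart.

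**Figure D1:**
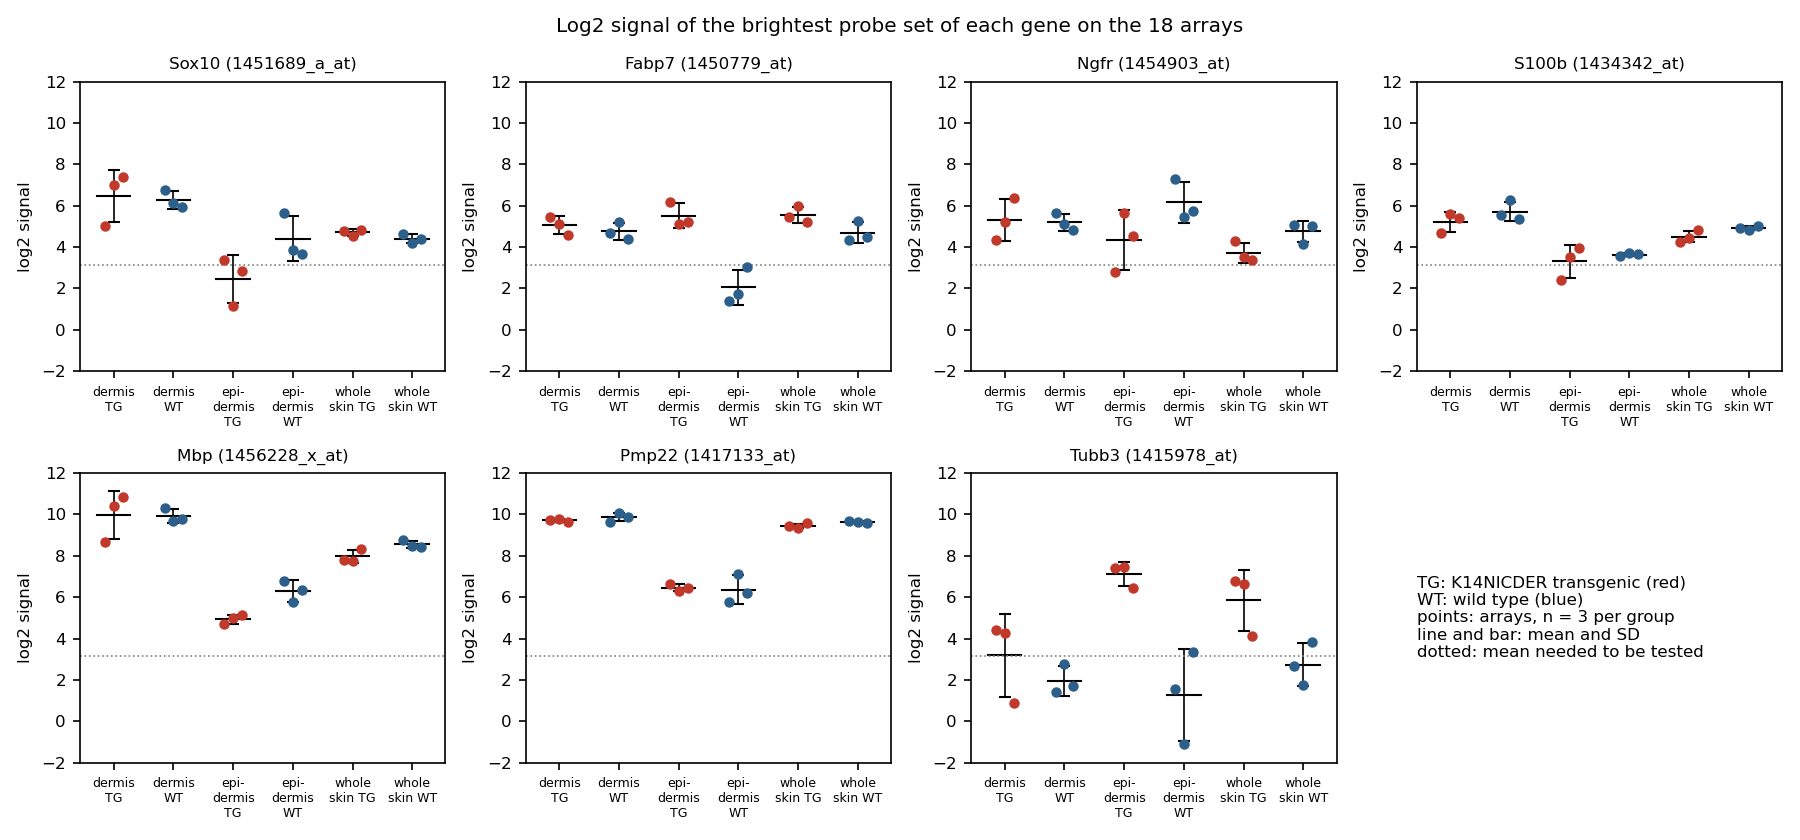
Log2 signal of the probe set with the highest mean of each of the 7 genes on the 18 arrays, transgenic (TG, red) and wild type (WT, blue) side by side in each tissue. Points are arrays, lines and bars are means and SD (n = 3), and the dotted line is the mean of 3.149 needed for a probe set to be tested. Only Tubb3 and Fabp7 passed the genotype test in epidermis, though the genotypes of Sox10 and Mbp did not overlap there either. Dermis lay above epidermis without overlap within each genotype for Mbp, Pmp22, Sox10 and S100b.

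In epidermis, 2 of the 17 tested probe sets passed the test for genotype, both higher in transgenic mice. Of these 2, Tubb3 entered the test only through transgenic epidermis, the group where it was high. Of the 17 differences, 13 were negative. Over all 31526 probe sets, 1.49% passed, 0.923% higher and 0.568% lower. The median difference of the 17 was −0.86, against −0.20 over all probe sets tested. All 8 Mbp probe sets, which read 1 gene and are not independent, are among the 17 and had negative differences. The 3 transgenic arrays lay wholly on 1 side of the 3 wild-type arrays for 9 of the 17, against 23% of all probe sets. An unadjusted p under 0.05 was seen for 10 of the 17, and all probe sets were not counted at that level. The median signal of the whole array differed as well: it was 4.36 to 4.76 on the transgenic epidermis arrays, against 4.84 to 5.18 in wild-type epidermis. With quantile normalization, which removes that difference, Tubb3 and Fabp7 still passed, and Ngfr 1450177_at stood at −2.62 (adjusted p = 0.0692).

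Tubb3 showed the largest difference among the members. Its signal was 7.41, 7.48 and 6.45 on the transgenic epidermis arrays, against 1.55, −1.09 and 3.33 on the wild-type epidermis arrays. Every transgenic array was high, and the wild-type arrays lay at the dim end of the scale and spread widely. Tubb3 rose by 5.85 ± 0.92 (limma, adjusted p = 0.0125). It entered the test through transgenic epidermis alone, and with all probe sets tested, whatever their mean, its adjusted p was 0.00858. The size depends on the scale: with 16 added to the linear signal the difference was 2.95 (adjusted p = 8.11e-04). The difference did not pass when transgenic replicate 1 (adjusted p = 0.0831) or transgenic replicate 2 (adjusted p = 0.0731) was left out, and its range over all alternatives was 2.95 to 6.88, with adjusted p between 8.11e-04 and 0.0970.

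Fabp7 had 6.20, 5.12 and 5.23 in transgenic epidermis, against 1.41, 1.71 and 3.03 in wild-type epidermis. The groups did not overlap, and the wild-type arrays were again dim. Fabp7 rose by 3.47 ± 0.65 (limma, adjusted p = 0.0260). Its call rested on all 3 transgenic arrays: without transgenic replicate 1, 2 or 3 the adjusted p was 0.202, 0.0976 and 0.0866. Over the alternatives its difference lay between 1.60 and 4.02, and it passed in 9 of 14. The transgenic epidermis values lay among or above the dermis values, which ranged between 4.38 and 5.45 over both genotypes.

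No other member passed in epidermis. Sox10 (probe set 1451689_a_at, its brightest) had 3.38, 1.17 and 2.83 in transgenic epidermis, against 5.66, 3.87 and 3.68 in wild-type epidermis. All transgenic arrays were below all wild-type arrays, and the difference of −1.94 ± 0.81 did not pass (adjusted p = 0.249). The other tested Sox10 probe set gave −0.86, with overlap.

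Both tested Ngfr probe sets had negative differences, and neither passed. Probe set 1450177_at had 1.46, 3.56 and 3.26 in transgenic epidermis, against 6.01, 4.90 and 5.91 in wild-type epidermis. The groups did not overlap, and the difference of −2.85 ± 0.66 stood just outside the threshold (adjusted p = 0.0598). It passed in the fit of all 18 arrays (adjusted p = 0.00343), with 16 added to the linear signal (−1.47, adjusted p = 0.0306) and without wild-type replicate 2 (−3.20, adjusted p = 0.0223). Probe set 1454903_at gave −1.82 ± 0.70 (adjusted p = 0.219), with 1 transgenic array, at 5.67, inside the wild-type range.

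The 8 Mbp probe sets all had negative differences in epidermis, between −0.58 and −1.36, and 0 passed in limma. At an unadjusted p under 0.05 there were 5, without a count over all probe sets. The brightest, 1456228_x_at, had 4.68, 4.99 and 5.12 in transgenic epidermis, against 6.78, 5.76 and 6.35 in wild-type epidermis. Its groups did not overlap (−1.36 ± 0.39, adjusted p = 0.120), and without wild-type replicate 2 it passed (−1.63, adjusted p = 0.0353). The 8 probe sets read the same gene and are not independent of each other. Pmp22 stood at 0.08 ± 0.37 (adjusted p = 0.919). The S100b probe sets gave −0.34 ± 0.66 and 1.68 ± 0.99, so that they differed in sign, and both groups overlapped on each.

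**Figure D2:**
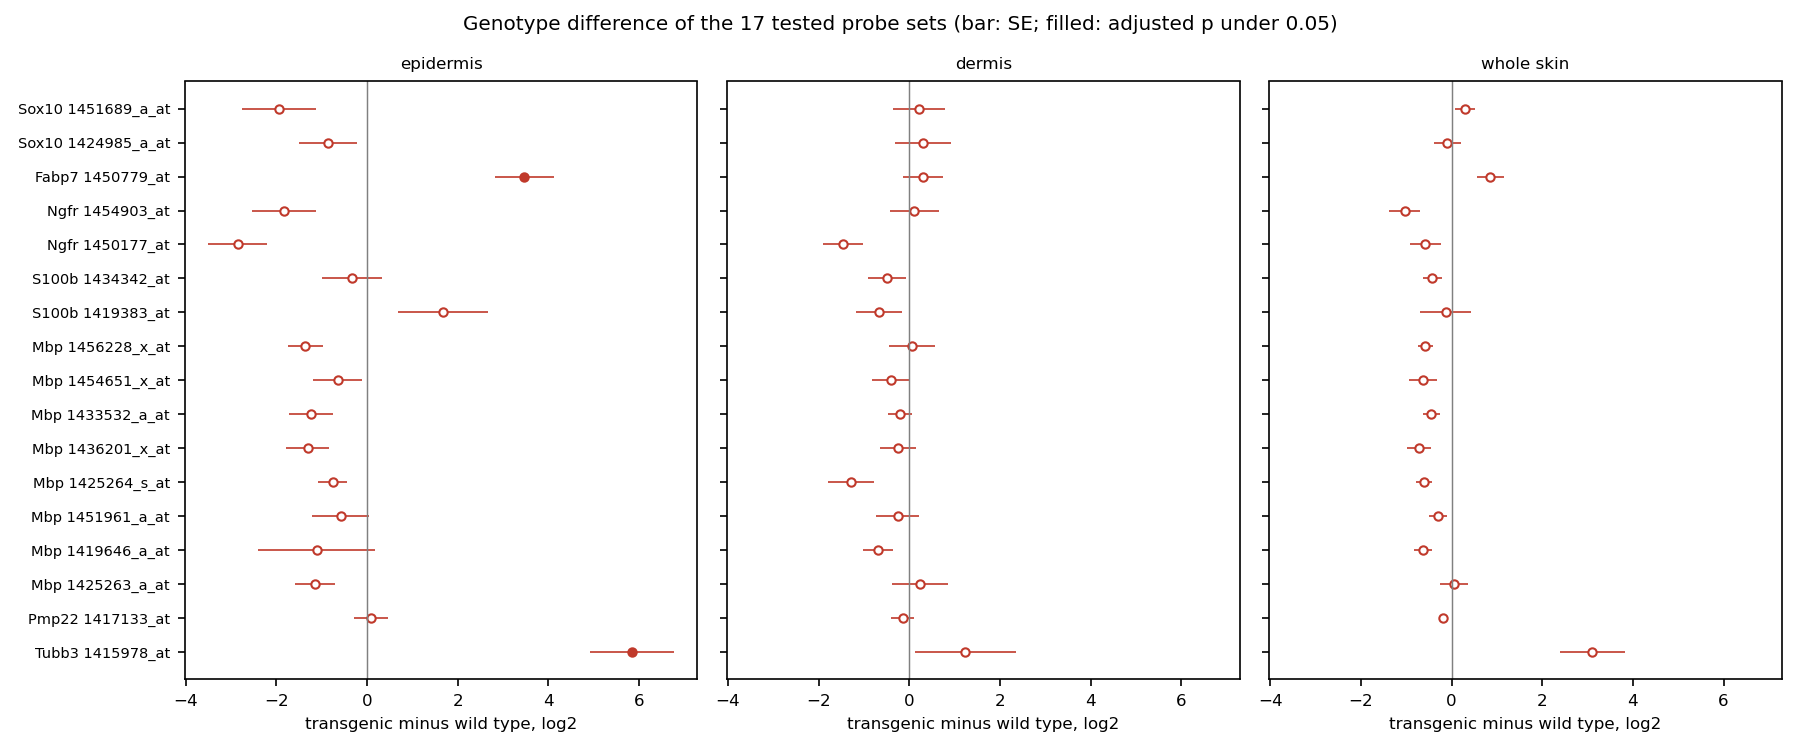
Transgenic minus wild-type log2 difference of the 17 tested probe sets in epidermis, dermis and whole skin, with standard errors. Filled points passed at an adjusted p under 0.05: Fabp7 and Tubb3 in epidermis and no member in dermis or whole skin. Tubb3 entered the test through transgenic epidermis alone.

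Markers of other cells were read in the same epidermis arrays. The summed linear signal of 12 melanocyte genes was 187.5 to 530.8 in transgenic epidermis, against 177.4 to 233.7 in wild-type epidermis. Of the 9 tested, 0 passed in limma and 2 were higher at an unadjusted p under 0.05, while Dct, an enzyme of pigment synthesis, stood at 2.33 (adjusted p = 0.140). The sum of 8 fibroblast genes was 8736 to 12418 in transgenic and 3861 to 9008 in wild-type epidermis, with 0 of 8 passing and 4 higher at an unadjusted p under 0.05. Of 6 immediate-early and handling genes, Fos and Dusp1 rose by 1.49 and 1.08, and the list summed to 3710 to 4006 in transgenic and 2171 to 2718 in wild-type epidermis. Of 7 basal keratinocyte genes, whose sums stand above and did not overlap, 2 fell, Krt15 by 3.66 and Col17a1 by 1.19 on the log2 scale. Flg, 1 of 6 differentiated keratinocyte genes, rose by 2.90. At an unadjusted p under 0.05 in limma, 3 of that list were higher and 2 lower, with a median difference of 0.08. The list summed to 21054 to 25961 in transgenic and 18992 to 29978 in wild-type epidermis. Krt73, 1 of 6 tested hair follicle and inner root sheath genes, rose by 4.39, and that list summed to 164.6 to 434.8 in transgenic and 69.8 to 183.5 in wild-type epidermis. Acta2, a smooth muscle actin and 1 of 5 pericyte and smooth muscle genes, rose by 2.58. That list summed to 557.8 to 748.6 in transgenic epidermis, above the 260.6 to 500.9 in wild-type epidermis. Its mean log2 signal overlapped, at 5.995 to 6.488 in transgenic and 5.551 to 6.569 in wild-type epidermis. The median difference of the 5 genes was 0.14. No endothelial, adipocyte, skeletal muscle, Langerhans and macrophage or Merkel cell gene passed in limma. Without adjustment, 2 adipocyte genes were lower and 1 Merkel cell gene higher at p under 0.05. The unadjusted counts of these markers have no count over all probe sets beside them. At an adjusted p under 0.05, 0.923% of all probe sets were higher and 0.568% lower. Skeletal muscle genes varied widely within every separated-layer group, for example 295.0 to 16745 in transgenic dermis. The part of any of these in the member values was not tested.

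In dermis, no member passed in limma, where 0.0222% of all probe sets passed at an adjusted p under 0.05. Of the 17, 2 had an unadjusted p under 0.05, a level at which all probe sets were not counted. Fabp7 had 5.45, 5.12 and 4.61 in transgenic dermis, against 4.70, 5.21 and 4.38 in wild-type dermis, with overlapping groups (0.29 ± 0.44, adjusted p = 0.990). Tubb3 had 4.43, 4.27 and 0.86 in transgenic dermis, against 1.40, 2.77 and 1.69 in wild-type dermis. Its transgenic arrays were split, with 2 above every wild-type array and 1 below them all (1.24 ± 1.10, adjusted p = 0.990). Ngfr 1450177_at had 4.75, 4.84 and 3.68 in transgenic dermis, against 6.05, 5.87 and 5.73 in wild-type dermis. Its groups did not overlap, and the difference of −1.46 ± 0.44 did not pass (adjusted p = 0.990). The other probe set with a low unadjusted p was Mbp 1425264_s_at, at −1.28 ± 0.51. Pmp22, at −0.15 ± 0.25, and the brightest Sox10 and Mbp probe sets, at 0.21 ± 0.57 and 0.05 ± 0.51, were close to 0 with wide errors. Non-overlap held for 2 of the 17, against 9.13% of all probe sets.

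Only 1 of the 12 marker lists had genes that passed between genotypes in dermis: 4 of 6 tested genes of the inner root sheath of the hair follicle rose, among them Krt25 by 8.45, and their list summed to 2051 to 3728 in transgenic dermis, against 60.2 to 96.7 in wild-type dermis. Whether follicle tissue bears on the member values was not tested.

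In whole skin, no member passed in limma, where 1.56% of all probe sets passed at an adjusted p under 0.05. Of the 17, 8 had an unadjusted p under 0.05, a level at which all probe sets were not counted. Tubb3 had 6.78, 6.63 and 4.13 in transgenic whole skin, against 2.66, 1.75 and 3.82 in wild-type whole skin. All transgenic arrays lay above all wild-type arrays, replicate 3 narrowly (3.11 ± 0.71, adjusted p = 0.0710). Without transgenic replicate 3 the difference was 3.96 and passed (adjusted p = 0.0113). Fabp7 had 5.46, 5.99 and 5.20 in transgenic whole skin, against 4.34, 5.28 and 4.48 in wild-type whole skin. These overlapped by 1 wild-type array (0.85 ± 0.29, adjusted p = 0.200).

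Most other differences in whole skin were negative, 13 of 17 in all, with a median of −0.42 against −0.02 over all probe sets tested. Of the 17, 8 are probe sets of Mbp, which read 1 gene and are not independent. Mbp 1456228_x_at had 7.80, 7.77 and 8.34 in transgenic whole skin, against 8.75, 8.47 and 8.45 in wild-type whole skin. The groups did not overlap (−0.58 ± 0.16, adjusted p = 0.127), and without transgenic replicate 3 the probe set passed (−0.77, adjusted p = 0.0291). The same omission brought the member probe sets that passed to 4. Ngfr 1454903_at stood at −1.03 ± 0.35 (adjusted p = 0.188), S100b 1434342_at at −0.42 ± 0.22 and Pmp22 at −0.19 ± 0.09, and none of these passed. Non-overlap held for 6 of 17, against 21.8% of all probe sets.

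More members passed between the layers than between the genotypes, in fits of 12 arrays that leave more residual degrees of freedom. In transgenic skin 10 of the 17 probe sets, from 5 genes, passed between dermis and epidermis, 9 higher and 1 lower in dermis, where 18.8% of all probe sets passed (9.19% higher and 9.6% lower). In wild-type skin 11 passed, from 4 genes, 10 higher and 1 lower in dermis, where 15.7% of all probe sets passed (8.57% higher and 7.12% lower). The median difference of the 17 was 1.92 in transgenic skin and 2.08 in wild-type skin, against −0.05 and −0.16 over all probe sets. Non-overlap held for 12 and 13 of the 17, against 33.8% and 39.9% of all. Of the passing probe sets 6 in transgenic skin and 7 in wild-type skin were of Mbp alone. Tubb3 was among the 10 and S100b 1419383_at among the 11, each tested only through the group where it was high.

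Mbp, the major basic protein of compact myelin, was higher in dermis on 6 of its 8 probe sets in both genotypes. Probe set 1433532_a_at had 9.01, 9.49 and 9.61 in transgenic dermis, against 4.16, 3.43 and 4.82 in transgenic epidermis. The groups lay far apart, with a difference of 5.24 ± 0.34. In wild-type skin it had 9.76, 9.54 and 9.43 in dermis, against 5.10, 5.57 and 5.46 in epidermis, a difference of 4.20 ± 0.34. The brightest probe set, 1456228_x_at, gave 5.04 ± 0.46 in transgenic skin (adjusted p = 1.78e-05) and 3.62 ± 0.46 in wild-type skin (adjusted p = 2.53e-04). The 6 ranged from 2.25 to 5.24 in transgenic skin and from 1.93 to 4.22 in wild-type skin. The weakest of them, 1451961_a_at, did not pass in wild-type skin without wild-type dermis replicate 1 or 2 or without wild-type epidermis replicate 3 (adjusted p of 0.0621, 0.112 and 0.111).

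The remaining pair of Mbp probe sets had negative differences. Probe set 1425263_a_at had 3.62, 2.99 and 3.37 in wild-type dermis, against 6.81, 5.33 and 5.82 in wild-type epidermis, and was lower in dermis by a difference of −2.66 ± 0.50 (adjusted p = 0.00301). In transgenic skin it stood at −1.27 ± 0.50 (adjusted p = 0.0907), and it passed there in the fit of all 18 arrays (adjusted p = 0.0335). Probe set 1425264_s_at gave −1.05 ± 0.43 in transgenic and −0.51 ± 0.43 in wild-type skin. Across the 18 arrays the 6 dermis-high probe sets had Pearson correlations of 0.74 to 0.99 with each other, while 1425263_a_at had −0.65 to −0.75 with them and 1425264_s_at −0.10 to −0.36. These are descriptions over arrays that share their groups. Besides its myelin proteins the Mbp gene makes golli transcripts, from a promoter of their own, in cells that form no myelin. Which transcripts each probe set reads was not known here, and sets ending in _s_at or _x_at can also bind transcripts of other genes.

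**Figure D3:**
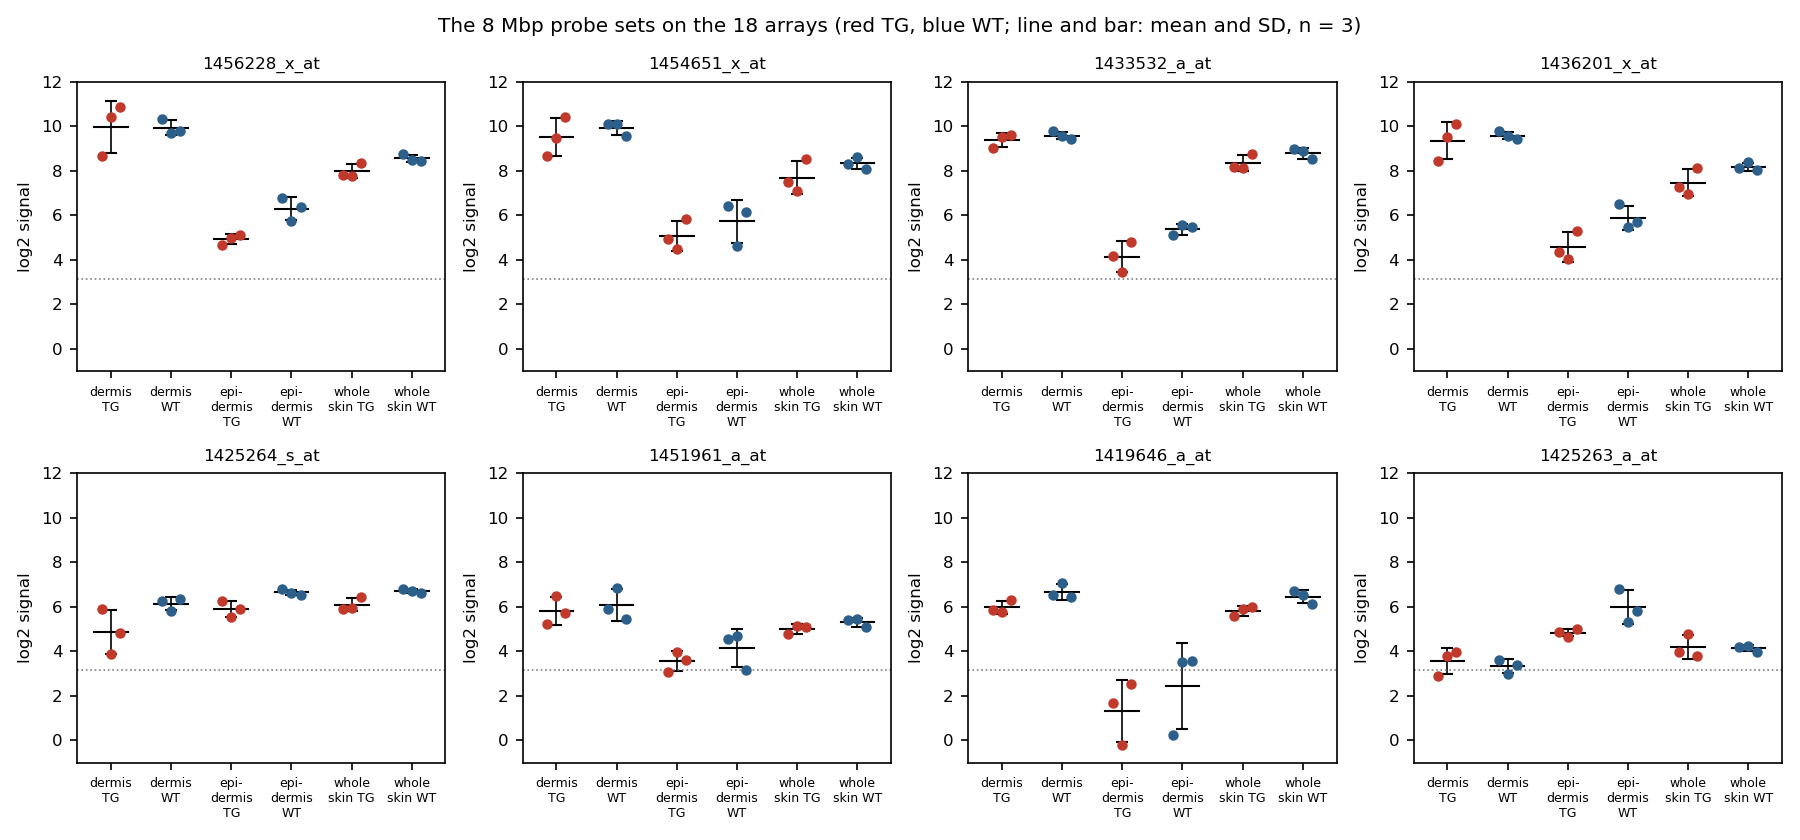
Log2 signal of the 8 Mbp probe sets on the 18 arrays, transgenic (red) left of wild type (blue) in each tissue, with means and SD (n = 3). In 6 panels both dermis groups lie above both epidermis groups, in 1425263_a_at both epidermis groups lie above both dermis groups, and in 1425264_s_at each genotype's epidermis mean lies above its own dermis mean.

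Pmp22, a membrane protein of compact myelin that fibroblasts and epithelia also make, had 9.73, 9.77 and 9.64 in transgenic dermis, against 6.63, 6.29 and 6.44 in transgenic epidermis. In wild-type skin it had 9.65, 10.05 and 9.88 in dermis, against 5.79, 7.12 and 6.20 in epidermis. Every dermis array was above every epidermis array, with differences of 3.26 ± 0.30 in transgenic skin (adjusted p = 2.03e-05) and 3.49 ± 0.30 in wild-type skin (adjusted p = 3.86e-05). The fibroblast genes above were higher in dermis as well, and their part in the Pmp22 values was not tested.

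Sox10 (1451689_a_at) had 5.04, 6.98 and 7.40 in transgenic dermis, against the transgenic epidermis values of 3.38, 1.17 and 2.83 given above. The groups did not overlap, and Sox10 was higher in dermis by 4.02 ± 0.72 (adjusted p = 0.00154). In wild-type skin it had 6.74, 6.13 and 5.93 in dermis, against 5.66, 3.87 and 3.68 in epidermis, again without overlap (1.86 ± 0.72, adjusted p = 0.0904). That difference passed in the fit of all 18 arrays (adjusted p = 0.0352) and without transgenic dermis replicate 1 (adjusted p = 0.0468), which shares in the estimate of the spread. The other tested Sox10 probe set, 1424985_a_at, stood at 0.97 ± 0.69 in transgenic and −0.19 ± 0.69 in wild-type skin, and its correlation with 1451689_a_at over 18 arrays was 0.41. Of 9 tested melanocyte genes, another Sox10-expressing lineage, 5 were also higher in dermis in each genotype. Over all probe sets tested, the shares higher in dermis were 9.19% in transgenic and 8.57% in wild-type skin. The melanocyte list summed to 972.2 to 1332 in transgenic dermis and 850.1 to 1128 in wild-type dermis, above the epidermis sums given earlier, and its part in the Sox10 values was not tested.

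S100b 1434342_at had 4.68, 5.61 and 5.39 in transgenic dermis, against 2.42, 3.52 and 3.97 in transgenic epidermis, and was higher in dermis by 1.92 ± 0.50 (adjusted p = 0.0155). In wild-type skin it had 5.55, 6.25 and 5.34 in dermis, against 3.55, 3.71 and 3.65 in epidermis (2.08 ± 0.50, adjusted p = 0.0129). The groups did not overlap in either genotype. Single arrays carried some of these calls: without transgenic dermis replicate 2 or transgenic epidermis replicate 1 the transgenic difference had an adjusted p of 0.0624 and 0.0655, and without wild-type dermis replicate 2 the wild-type difference had 0.0636. The dimmer S100b probe set, 1419383_at, was higher in wild-type dermis by 3.05 ± 0.72 (adjusted p = 0.0113, 0.0143 with all probe sets tested whatever their mean, and 0.0663 without wild-type dermis replicate 3) and stood at 0.69 ± 0.72 in transgenic skin.

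Fabp7 and Tubb3 were each called between layers in 1 genotype. In wild-type skin Fabp7 was higher in dermis by 2.72 ± 0.54 (adjusted p = 0.00446), and every wild-type dermis array lay above every wild-type epidermis array. In transgenic skin its layers overlapped (−0.46 ± 0.54, adjusted p = 0.611). Tubb3 was lower in transgenic dermis than in transgenic epidermis, by a difference of −3.93 ± 1.09 (adjusted p = 0.0215), and stood at 0.69 ± 1.09 in wild-type skin (adjusted p = 0.689). Tubb3 entered the test only through transgenic epidermis, the group that was high in this comparison. Without transgenic dermis replicate 3, the dim array, the Tubb3 difference was −2.76 (adjusted p = 0.0811), and it also missed the threshold without transgenic epidermis replicate 1 or 2 (adjusted p of 0.0711 and 0.0777).

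The test of the difference itself, the genotype effect in dermis minus that in epidermis, passed in limma for 0 of the 17 probe sets and 0% of all. At an unadjusted p under 0.05 there were 5 of the 17, without a count over all probe sets. Fabp7 had −3.17 ± 0.76 (unadjusted p = 9.05e-04, adjusted p = 0.393) and Tubb3 −4.61 ± 1.54 (adjusted p = 0.636). A layer-dependent genotype effect was therefore not established for either gene. Ngfr was not called between layers on either tested probe set: 1450177_at stood at 1.66 ± 0.57 in transgenic skin (adjusted p = 0.0567) and 0.27 ± 0.57 in wild-type skin. In transgenic skin it passed in the fit of all 18 arrays (adjusted p = 0.0227), without transgenic dermis replicate 3 (adjusted p = 0.0354) and without transgenic epidermis replicate 2 (adjusted p = 0.0432).

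**Figure D4:**
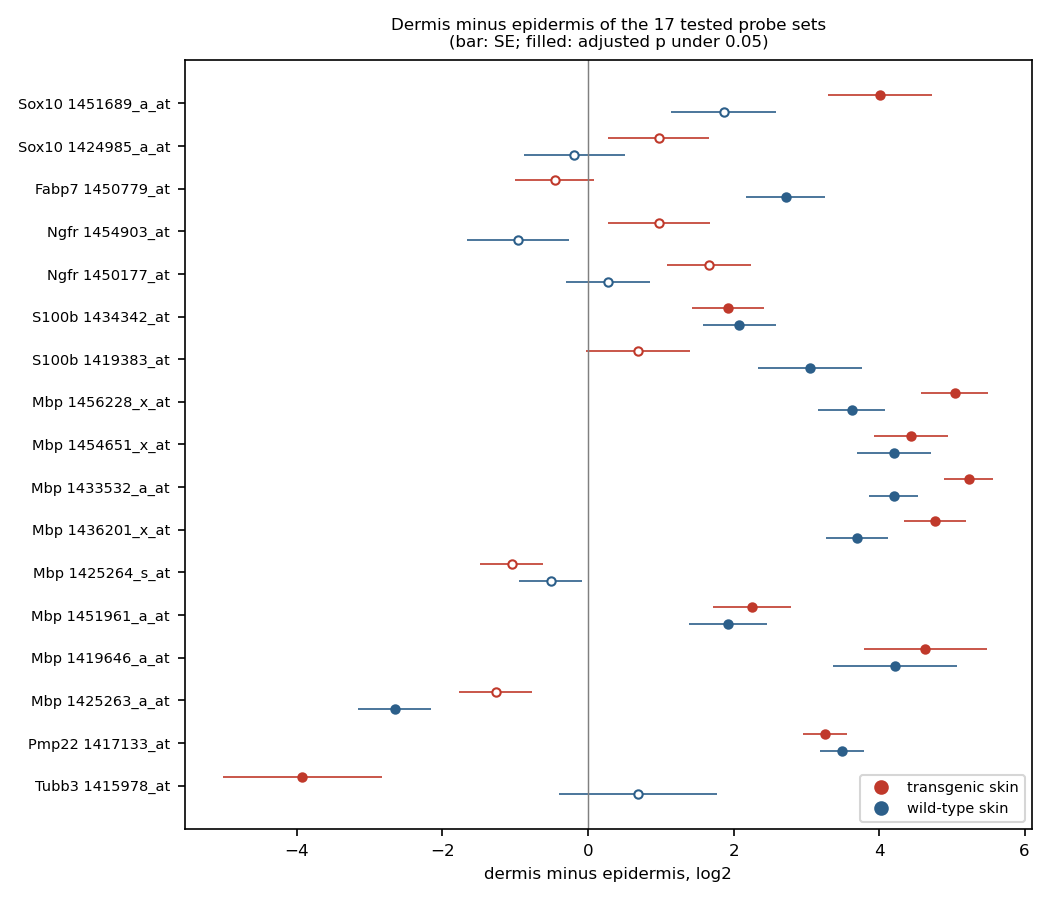
Dermis minus epidermis log2 difference of the 17 tested probe sets in transgenic skin (red) and wild-type skin (blue), with standard errors. Filled points passed at an adjusted p under 0.05: 10 in transgenic skin and 11 in wild-type skin, with Tubb3 and 1 Mbp probe set lower in dermis. Tubb3 was tested only through transgenic epidermis, and S100b 1419383_at only through wild-type dermis.

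Ordered by group mean, Mbp (1456228_x_at) ran in descending order through transgenic dermis, wild-type dermis, wild-type whole skin, transgenic whole skin, wild-type epidermis and transgenic epidermis. Of these neighbours only the dermis groups overlapped. Pmp22 began with wild-type and transgenic dermis, both above wild-type and then transgenic whole skin by small steps, and ended with the epidermis groups 2.99 below. S100b 1434342_at had the same order as Pmp22 down to whole skin, with wild-type epidermis above transgenic epidermis at the end. Sox10 (1451689_a_at) had both dermis groups on top, then both whole skin groups and wild-type epidermis, which overlapped, and transgenic epidermis last. Fabp7 had 5 groups within overlapping neighbours and wild-type epidermis alone at the bottom, 2.65 below the next. Tubb3 had transgenic epidermis, transgenic whole skin and transgenic dermis on top, and every neighbouring pair in its order overlapped. The orders of Sox10 and Ngfr differed between their probe sets: on Sox10 1424985_a_at wild-type epidermis came after transgenic dermis and the whole skin groups came last, and on the untested 1425369_a_at wild-type epidermis was on top, with overlap between all neighbours on both.

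Genes whose pattern over the 18 arrays was most like that of each member were named by the 3 highest Pearson correlations among 13738 other genes, as a description. Arrays of a group share their tissue and genotype, which enters every such value. For Sox10 these were 2310010J17Rik (0.95), Pax3, a neural crest and melanocyte transcription factor (0.94), and Zfp74 (0.94). For Mbp they were Thsd1 (0.99), Tmod2 (0.98) and Scn7a, a sodium channel of non-myelinating Schwann cells (0.97). Pmp22 had Alcam (0.99), Timp2 (0.99) and Zfp37 (0.98), and S100b had Reln, Nudt16 and Rcsd1 (0.94 each). Fabp7 had Lrrc17 (0.93), Cgref1 (0.90) and Capn2 (0.90), Ngfr had Tmprss5 (0.91), Lacc1 (0.90) and Btbd6 (0.89), and Tubb3 had Fam43a (0.89), Pinlyp (0.87) and Egln3 (0.87).

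The wider lists of related genes, each gene read at its brightest probe set, were set beside the members. The lists include the members, so their counts partly repeat the member values. Sox10, Ngfr and Foxd3 each stand in both the immature Schwann cell list and the neural crest list. Over all probe sets tested, 0.923% were called higher and 0.568% lower in transgenic epidermis. Of 18 tested genes of immature and non-myelinating Schwann cells, 2 rose in transgenic epidermis and 0 fell: Fabp7, and Itgb8, an integrin subunit, which rose by 2.20 ± 0.31 (adjusted p = 0.00664). Of 15 tested neural crest specifier genes 1 rose, namely Sox9, a transcription factor also of hair follicle cells, by 1.51 ± 0.28 (adjusted p = 0.0260). Of 8 tested axon and neuron genes Tubb3 alone passed. Map2, a microtubule protein of neurons, stood at 0.43, Stmn2, a tubulin-binding protein of growing axons, at 0.35, and Rtn1 and Syt1 at −1.61 and −1.66, and none of these passed. Of 8 tested myelin genes 0 passed in limma. At an unadjusted p under 0.05 the immature list had 3 genes higher and 4 lower, and the neural crest list 1 and 4. The axon list had 1 and 2, and the myelin list 0 and 1. No count over all probe sets was made at that level. The medians of the lists in that order were −0.24, −0.57, 0.17 and −0.13, against −0.20 over all probe sets.

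In dermis 0 genes of these 4 lists passed between genotypes in limma. At an unadjusted p under 0.05 there were 2 myelin genes and 1 neural crest gene, without a count over all probe sets. In whole skin Itgb8 rose by 0.89 ± 0.12 (adjusted p = 0.0105), Jun, a transcription factor of injured Schwann cells and an immediate-early gene, by 0.76 ± 0.11 (adjusted p = 0.0132), and Egr2, the myelination transcription factor, which other skin cells also express, by 0.43 ± 0.08 (adjusted p = 0.0362). Of the 6 immediate-early and handling genes, 4 rose in whole skin, Jun among them. Over all probe sets tested, 0.91% were called higher and 0.653% lower in transgenic whole skin.

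Between the layers, the counts below stand beside the shares over all probe sets. These were 9.19% higher and 9.6% lower in transgenic skin, and 8.57% and 7.12% in wild-type skin. The list genes higher in dermis include Mbp, Pmp22 and S100b in both genotypes, Sox10 in transgenic skin and Fabp7 in wild-type skin. Of 8 tested myelin genes 5 were higher in dermis in each genotype: Mbp, Pmp22, Cnp, an enzyme of non-compact myelin (2.60 in transgenic and 2.31 in wild-type skin), Mal, a myelin and epithelial membrane protein (2.88 and 2.92), and Drp2, a dystrophin-related protein of the Schwann cell surface (3.23 and 3.63). The list's 1 gene lower in dermis was Pou3f1, a transcription factor of Schwann cells and keratinocytes (−2.28 and −1.33). Of the 18 immature and non-myelinating genes, 5 were higher and 2 lower in dermis in transgenic skin, and 7 higher and 1 lower in wild-type skin, so that the shares lower were near those of all probe sets. Among them Scn7a was higher by 4.30 ± 0.33 and 2.60 ± 0.33, and Cdh19, a cadherin of Schwann cell precursors, by 3.33 ± 0.45 and 2.40 ± 0.45. Those lower were Jun and Erbb2 in transgenic skin and Erbb2 in wild-type skin, Erbb2 being a neuregulin co-receptor of Schwann cells and epithelia.

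Of 15 tested neural crest genes, 8 were higher in transgenic dermis and 6 in wild-type dermis, and 0 were lower in limma in either, also at an unadjusted p under 0.05. Twist1 and Zic1, transcription factors that dermal cells also express, were higher by 3.12 and 4.04 in transgenic and by 2.72 and 3.33 in wild-type skin, and Ednrb, the endothelin B receptor, by 4.26 and 2.01. Of 8 tested axon and neuron genes, 0 were higher in dermis in limma in either genotype, while Map2 was lower by differences of −2.71 in transgenic and −1.56 in wild-type skin. At an unadjusted p under 0.05, 1 was higher in transgenic dermis and 2 in wild-type dermis, without a count over all probe sets. Several genes of these lists are shared with other skin cells, and 8 of 16 myelin genes and 8 of 20 axon genes could be tested.

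**Figure D5:**
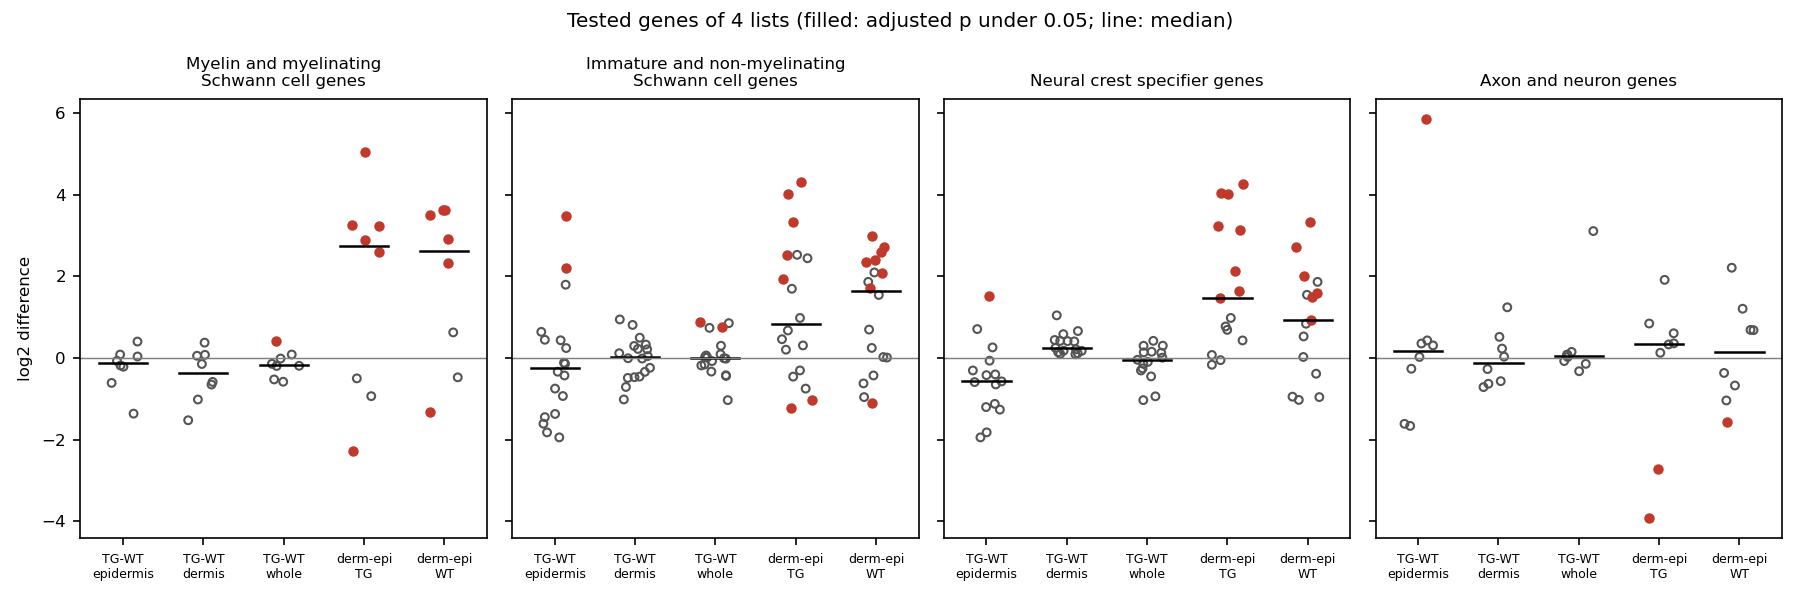
Log2 differences of the tested genes of 4 lists (each gene at its brightest probe set) in the genotype comparisons (TG-WT) of epidermis, dermis and whole skin and in dermis minus epidermis of transgenic and wild-type skin. Filled points passed at an adjusted p under 0.05 and lines are medians. Myelin genes passed mostly between layers, with 5 higher and 1 lower in dermis in each genotype, Mbp and Pmp22 among the 5.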

How the data were processed

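RNA of 18 skin samples was amplified with WT Ovation Pico and labelled with biotin, per the labels' protocols, and hybridised to Affymetrix mouse arrays. The submitters' processing notes name MAS5, which subtracts mismatch signal and scales each array to a common trimmed mean, with no version or settings. The deposited table was taken as log2 signal: the lowest value was −7.52 and the highest 14.42, and after conversion to a linear scale each array's trimmed mean was 98.9 to 99.5. Between 2.81% and 9.36% of an array's values were below 0, and the top 1% of probe sets held 16.5% to 33.8% of the signal. MAS5 spreads dim values widely, so differences against a dim group are large and imprecise. All 153 array pairs differed. Of the 45037 probe sets, 34945 had 1 symbol in the platform annotation, and only these were named. All 7 member symbols matched a RefSeq table by Entrez identifier.

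Values were used as deposited. The plan to take log2 of the value plus 16 applied to linear values, and adding 16 on the linear scale was kept as an alternative. Probe sets whose mean over all arrays was above the 30th percentile (3.149) were tested, 31526 in all. They were fitted in limma 3.58.1 (R 4.3.3; lmFit, and eBayes with a trend), with the 6 arrays of 1 tissue for genotype and the 12 arrays of the separated layers for the layers and the difference between genotype effects. The Benjamini-Hochberg adjustment ran over all tested probe sets of a comparison, and an adjusted p under 0.05 was called. The share of all probe sets at an unadjusted p under 0.05 was not computed, so counts at that level have no background.

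The members and lists were chosen with earlier results of these data known. All member probe sets are reported whatever their result. List genes were named for the smallest adjusted p, up to 4 per list and comparison, and other list genes were named after their values were seen. The fit was tested on simulated data for 31526 probe sets with 200 changed: changes of 2 (log2) were recovered in 7.2% of cases in epidermis, 0% in dermis, 79.2% in whole skin, 32.6% and 37.8% between layers in transgenic and wild-type skin, and 1.4% for the difference of effects. In this simulation, false calls made up 7.94% and 9.05% of the calls between layers in transgenic and wild-type skin. Both shares lay above the rate that the threshold is meant to hold. The false share was 2.70% in epidermis and 4.31% in whole skin. It was 0% in dermis and for the difference of effects, where few or no changes were recovered. The real layer comparisons called 5921 and 4947 probe sets in transgenic and wild-type skin, far more than the 200 changed here. Simulated noise was drawn separately for each probe set, without shifts of whole arrays. These simulated shares therefore need not hold for the real tests. The number of arrays limits the precision. Alternatives were other normalizations, filters, 1 probe set per gene, a prior without trend, 1 fit of all arrays, a replicate block and leaving out each array.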

Additional observations from a re-analysis of the deposited data

How the results depend on the processing

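Of 1395 member differences computed under alternatives, 1339 kept their direction and side of the threshold, 18 lost the call, 16 gained it and 22 changed sign, none of these called. The member probe sets passing in epidermis (2) became 4 in 1 fit of all 18 arrays, 0 with a filter at the 50th percentile, which leaves Tubb3 and Fabp7 untested, 0 without a trend in the prior (adjusted p of 0.0970 for Tubb3 and 0.0767 for Fabp7), and 0 to 4 when 1 array was left out. In whole skin (0) leaving out an array gave 0 to 4. Between layers, transgenic skin (10) gave 5 and wild-type skin (11) gave 4 with 1 probe set per gene, by construction, and wild-type skin gave 7 with the 50th-percentile filter. Leaving out an array gave 8 to 11 and 9 to 12. Dermis and the difference of genotype effects stayed at 0 member probe sets.

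Over all probe sets, the count in epidermis (470) was 1811 with all 18 arrays, 51 without trend and 88 to 2396 without 1 array. In dermis (7) it was 56 with all 18 arrays, 4 with the 50th-percentile filter, 2 without trend and 1 to 36 without 1 array. In whole skin (493) it was 34, 58 without trend and 138 to 509. In transgenic skin the layers (5921) gave 8979, 3054 with 1 probe set per gene and 3836 to 7357, and in wild-type skin (4947) 8488, 2559 and 2303 to 6344. The difference of effects (0) gave 45 with all 18 arrays, 14 with 16 added, 7 with no filter, 3 with 1 probe set per gene, 1 without trend and 0 to 45 without 1 array. The cause was not tested.

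Replicate numbers are shared between groups. Deviations of arrays of the same number correlated at −0.33 to 0.40, highest between transgenic dermis and epidermis (0.40, 0.16 and 0.0027 for replicates 1, 2 and 3). No pair of groups had all correlations above 0.1, and the numbers were not taken to pair samples. With the replicate block 1 member passed in epidermis, Tubb3 (adjusted p = 0.0224), and Fabp7 did not (adjusted p = 0.0831), while the layers kept 10 and 11 member probe sets. Over all probe sets the block gave 192 in epidermis, 6 in dermis, 340 in whole skin, 5115 and 4038 between layers, and 1 for the difference of effects.

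The sign of small, uncalled differences was not stable. With quantile normalization the epidermis difference of S100b 1434342_at turned to 0.17 and the dermis difference of Mbp 1456228_x_at to −0.14. Leaving out 1 array gave −0.67 to 0.11 for S100b 1434342_at and −0.21 to 0.46 for Pmp22 in epidermis. In dermis it gave −0.38 to 0.71 for Mbp 1456228_x_at, −0.42 to 0.59 for Ngfr 1454903_at and −0.25 to 0.93 for Sox10 1451689_a_at. Between layers of wild-type skin it gave −0.70 to 0.48 for Sox10 1424985_a_at, −0.49 to 1.72 for Tubb3 and −0.079 to 0.47 for Ngfr 1450177_at, and for the difference of effects −0.60 to 0.18 for S100b 1434342_at and −0.60 to 0.058 for Pmp22. The cause was not tested.

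Dim signal limits what these arrays show. Tubb3 and Fabp7 in wild-type epidermis, and Sox10 in transgenic epidermis, lie where MAS5 values scatter widely, so the sizes of their differences are uncertain even where a test passed.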
